A study of Vitis vinifera with 7 samples.

Results

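The subject is a group of 218 probe identifiers, out of 28811 on the array, whose signal was lower at veraison than in green Sauvignon blanc berries and lower again in ripe berries. Sauvignon blanc is a white cultivar of Vitis vinifera. The 218 probes were chosen by the array values themselves. Their highest veraison value had to lie at least 2 below their lowest green value on the log2 scale, and their ripe value at least 1 below their lowest veraison value. The stepwise pattern is therefore a property of the choice, and the values below describe it.

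Green grape berries are hard, carry out some photosynthesis, and store malic and tartaric acid and tannins. At veraison the berry softens, begins to import sugar and loses malic acid, and ripening follows. Messenger RNAs of green-berry functions are known to decline over this transition, some at once and some gradually. The value table holds identifiers only, and 0 of the 218 were found in the RefSeq gene table used here, so members are given by identifier and no role is stated for them.

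The stages sampled were named in the labels by numbers of the EL scale of grapevine growth. They were green berries at EL-31 with 3 arrays, veraison at EL-34 with 3, and ripe berries at EL-38 with 1. No treatment is named in the labels, and all arrays carry berry RNA from the same study. All sample titles share the code sh, which is not interpreted here. The ground tissue of a stage was 1 pool, and its arrays came from separate RNA extractions of aliquots. Errors thus cover extraction and array work and not vines or berries, and the ripe values have no replicate. Whether the tissue held seeds or skin could not be checked, because no marker gene could be identified among the probes. In pooled tissue, fewer cells of a type and less RNA per cell cannot be told apart. Of the arrays, veraison extraction 2 stood apart from extractions 1 and 3, and the counts of probe sets, of the division of the steps and of calls from veraison to ripe are given with and without it.

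The 218 probes moved from the upper to the lower part of the signal scale. In green extractions 1, 2 and 3 they had a median log2 signal of 13.03, 13.02 and 12.71. At veraison it was 8.84, 9.07 and 8.89, and in ripe berries 6.32. The median over all probes stayed between 9.17 and 9.22 on the 7 arrays. The quartiles of the members were 11.72 and 13.83 in green extraction 1, 7.73 and 10.09 in veraison extraction 1, and 5.67 and 7.94 on the ripe array. Within every stage the group holds probes at many signal levels. The members ranged from 9.91 to 15.92 in green extraction 1, from 6.14 to 13.17 in veraison extraction 1 and from 4.87 to 10.64 on the ripe array. Their common direction is set by the rule.

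**Figure D1:**
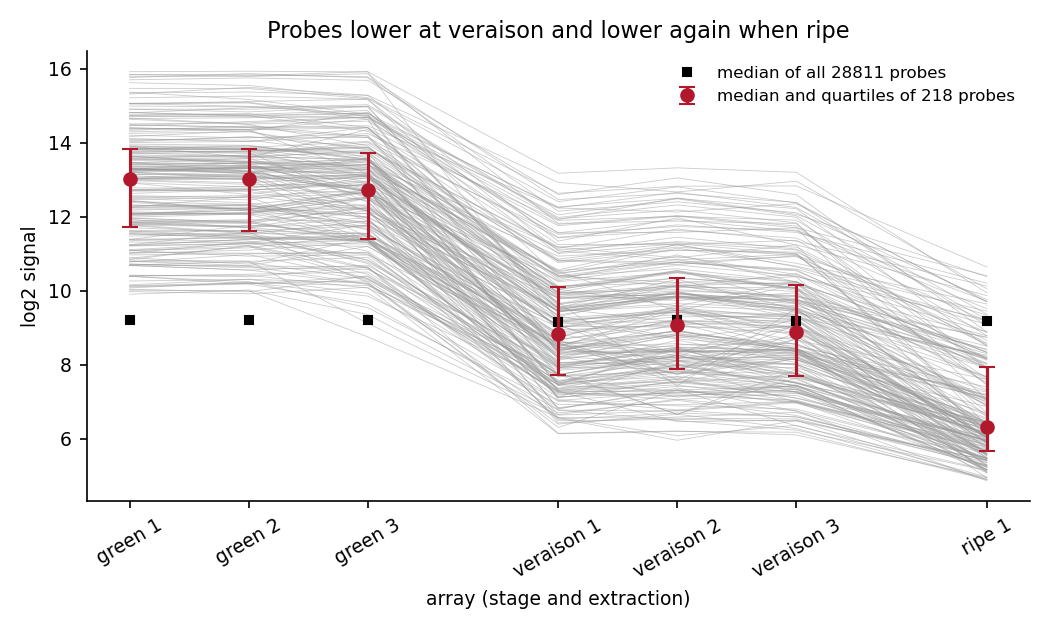
Log2 signal (vertical axis) of the 218 probes on the 7 arrays (horizontal axis, stage and extraction). Grey lines are single probes, red points and bars the median and quartiles of the 218, and black squares the median of all 28811 probes. The members' median goes from about 13 on the green arrays to 6.32 on the ripe array, while the squares stay level.

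From green to veraison the median difference of the 218 probes was -3.41 log2, a 10.6-fold lower signal, and single probes ranged from -7.48 to -2.20. Set against each veraison extraction separately, the median distance to a probe's own green mean was -3.45, -3.31 and -3.45. From veraison to ripe the median difference was -2.03, or 4.09-fold lower, with a range of -5.47 to -1.07. The whole distance from green to ripe had a median of -5.82, or 56.4-fold, with a range from 11.0-fold to 985-fold. The upper end belongs to a probe close to the top of the scale in green berries and near its bottom when ripe, so that fold is no more exact than the signal is there. It reached 16-fold in 207 of the 218 probes, 64-fold in 98 and 256-fold in 16. The first step reached 16-fold in 63 probes and the second in 13 (68 and 14 without veraison extraction 2).

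Members differed in how the decline was divided. The first step made up a median of 63.5% of the whole log2 difference, with quartiles of 53.3% and 70.6% and extremes of 36.0% and 86.0%. It was the larger step in 178 probes and the smaller in 40. The rule asks for a distance of 2 in the first step and of 1 in the second, which favours this order. The steps lay within 1 log2 of each other in 74 probes. In 27 probes at least 75% of the difference had been reached at veraison. Without extraction 2 the first step was the larger in 179 of the same probes and the smaller in 39, the steps were within 1 log2 in 70, and 37 had reached 75% at veraison.

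**Figure D2:**
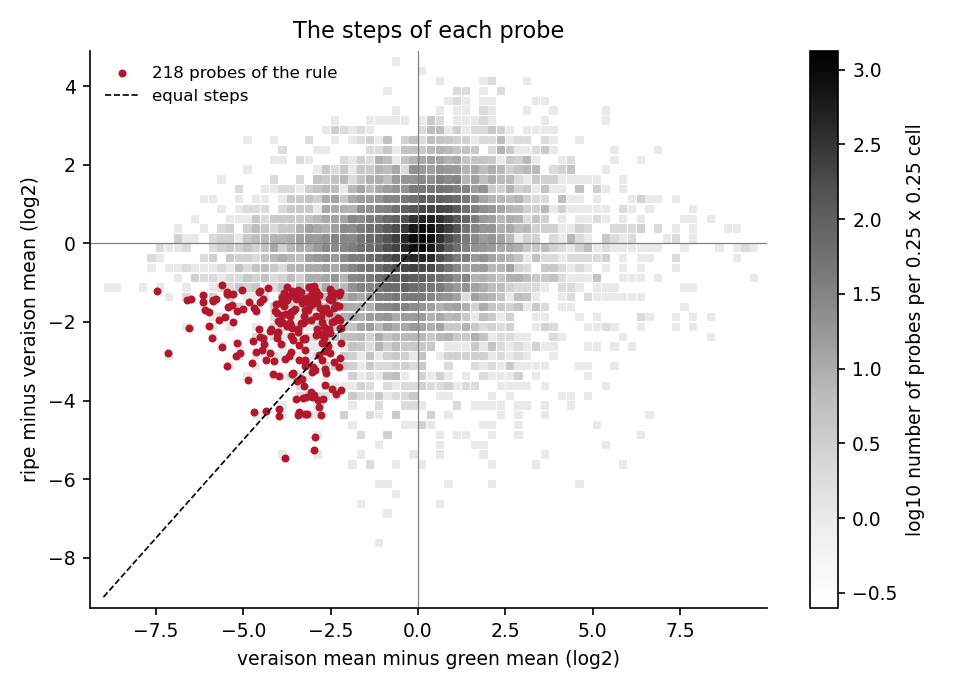
Veraison mean minus green mean (horizontal axis, log2) against ripe minus veraison mean (vertical axis, log2). Grey squares are cells of the plane shaded by the log10 number of all 28811 probes, red points the 218 probes, and the dashed line marks equal steps. The red points fill the lower left corner that the rule sets, with 178 above the dashed line and 40 below it.

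Probes with the largest first step had covered most of their distance to the ripe signal by veraison. VitusP00177801 had a log2 signal of 14.29, 14.36 and 14.63 on the green arrays, 7.06, 6.78 and 7.01 at veraison and 5.74 on the ripe array. VitusP00281910 stood at 13.03, 13.10 and 12.71, then at 6.55, 5.96 and 6.50, and then at 4.91. In both, green and veraison arrays lay far apart and the second step was small beside the first. The veraison extractions of VitusP00281910 ranged over 0.59 log2, and the ripe value lay 1.06 below the lowest of them. The first step was -7.48 (limma SE 0.14) for VitusP00177801 and -6.61 (limma SE 0.19) for VitusP00281910. The second step was -1.21 (limma SE 0.20) and -1.43 (limma SE 0.28).

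VitusP00159643 had the largest difference from green to ripe. Its log2 signal was 15.92, 15.93 and 15.91 in green berries, 9.18, 8.70 and 8.45 at veraison and 5.98 when ripe. The green values lay just under the highest value of any array, 15.99, where signals can be compressed. VitusP00010005, also among the probes with the largest first step, went from 15.05, 14.98 and 14.75 through 8.31, 8.36 and 8.43 to 6.20. Its 3 veraison extractions were within 0.12 log2 of each other.

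In a smaller number of probes the step after veraison was the larger one. VitusP00119744 had 15.34, 15.37 and 15.28 in green berries, 11.34, 11.97 and 11.23 at veraison and 6.04 when ripe. VitusP00053605 had 14.51, 14.54 and 14.68, then 11.56, 11.58 and 11.70, then 6.35. These are the largest second steps of the group, -5.47 (limma SE 0.28) and -5.26 (limma SE 0.15), against first steps of -3.81 (limma SE 0.20) and -2.96 (limma SE 0.11). VitusP00225455 and VitusP00218731 followed with second steps of -4.92 and -4.40. For the last of these, the green values were 15.79, 15.79 and 15.86, the veraison values 11.82, 11.88 and 11.82, and the ripe value 7.44. Its green values also lay near the top of the scale, where signals can be compressed. Its first step of -3.97 may therefore be understated, and the order of its steps is uncertain. The ripe end of each of these second steps rests on 1 array.

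Some probes were lowered by nearly the same amount in each step. VitusP00289051 stood at 15.47, 15.46 and 15.19, then at 12.41, 12.81 and 12.37, then at 9.69, with both steps at -2.84. VitusP00137156 had 15.05, 15.11 and 15.17 in green berries, 10.39, 10.59 and 10.25 at veraison and 6.13 when ripe, so that 52.3% of its whole difference of -8.98 came in the first step. VitusP00047588 and VitusP00250543 also had even steps, the former of -2.59 and -2.61 and the latter of -3.47 and -3.51. The extractions of a stage differed by less than 0.8 log2 in these 4 probes, well under their steps.

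**Figure D3:**
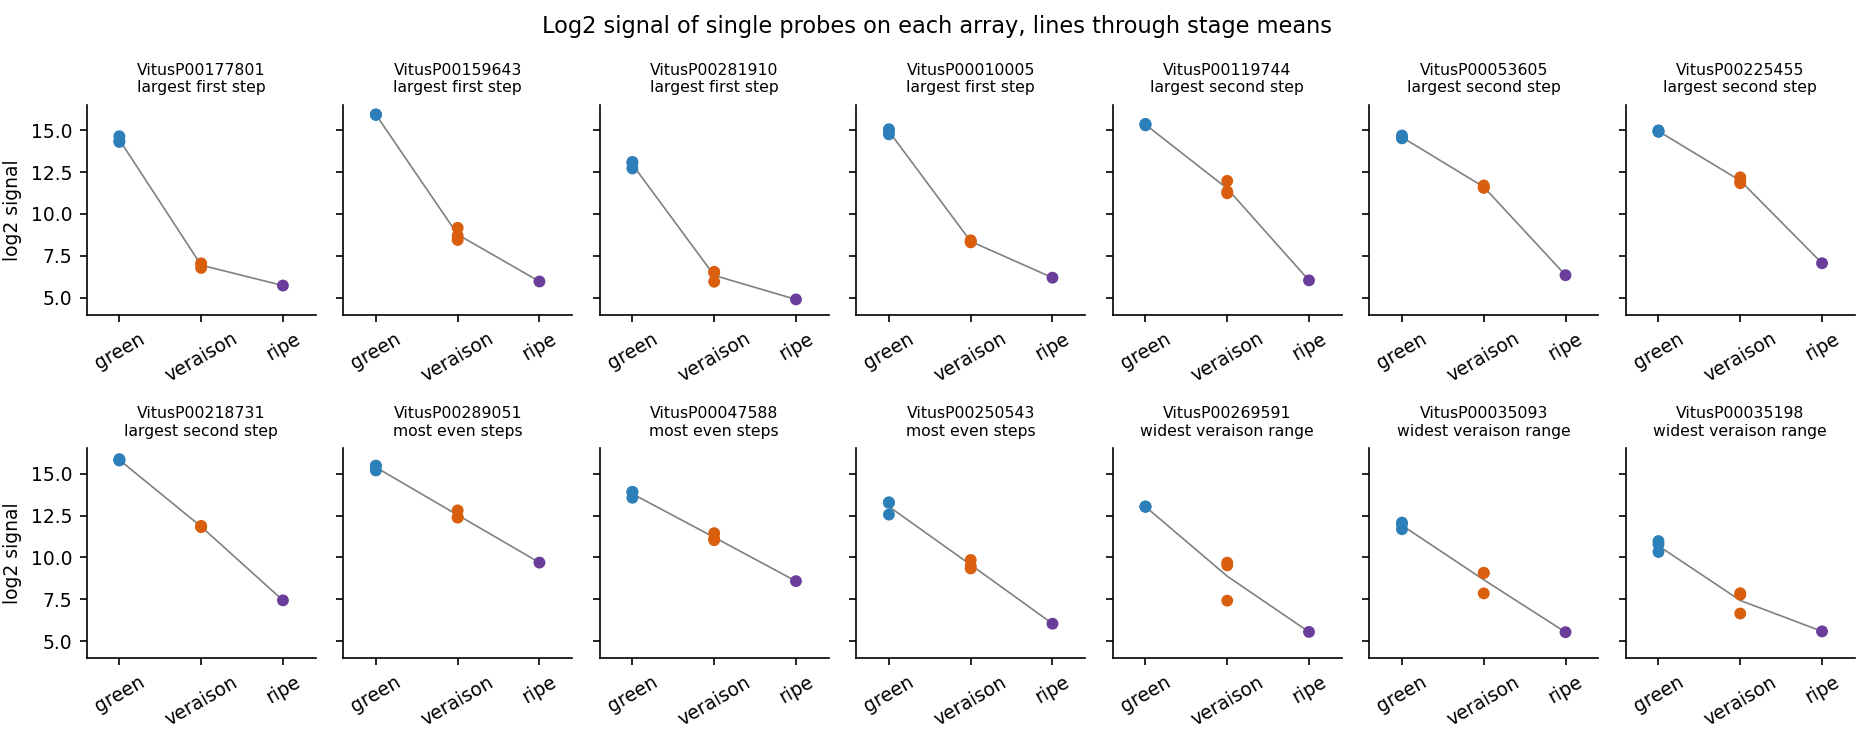
Log2 signal (vertical axis) of 14 single probes on each array by stage (horizontal axis). Blue points are the 3 green arrays, orange the 3 veraison arrays and purple the ripe array, with a grey line through the stage means. The first 4 panels show the largest first steps, the next 4 the largest second steps, then 3 even cases and 3 with the widest spread at veraison, where the low orange point is extraction 2.

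The bottom of the scale may limit how far a second step can be seen, but no background level was used and this was not tested. The lowest value on the ripe array was 4.47 over all probes and 4.87 among the members. On the ripe array 99 of the 218 probes lay at or under that array's 25th percentile of 6.20, and 30 at or under its 10th percentile. On each veraison array 2 or 3 members lay at or under the 25th percentile, and in green berries 0. Signals of different probes do not compare abundance, but they show the room left below each probe. VitusP00230408, VitusP00279537 and VitusP00230009 had the lowest green means, 9.59 ± 0.72, 9.76 ± 0.35 and 9.98 ± 0.29 (SD, n = 3). They ended at 5.30, 5.27 and 5.14, so their second steps of -1.26, -1.52 and -1.36 may be understated. The second step of VitusP00230408 had a limma SE of 0.47 and was not called in the linear model described below. Its low green mean rests on green extraction 3, at 8.75 beside 10.02 and 10.00. VitusP00155574 and VitusP00003716, near the upper end with 15.85 ± 0.06 and 15.82 ± 0.03 (SD, n = 3) in green berries, still gave 9.94 and 9.05 when ripe.

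Most probes that met the first distance did not meet the second. The first was met by 1030 probes, and the 218 are 21.2% of these, while 5.47% of all probes met the second. The 218 are 13.8% of the 1576 probes that met the second, while 3.58% of all probes met the first. Of the other probes that met the first distance, 750 had a ripe value less than 1 outside their veraison range, and in 62 the ripe value was at least 1 above it. With a veraison mean under 7 log2, 20 of 496 probes (4.03%) were also members. The share was 29.6% of 307 probes from 7 to under 9, 43.4% of 173 from 9 to under 11, and 59.3% of 54 at 11 or more. A dim veraison signal leaves less room for a further distance, and whether this gives the order was not tested. The share of all probes meeting the second distance was not taken by veraison mean. The ripe value was at least 1 above the veraison range in 4.23%, 9.12%, 6.94% and 1.85% of the same classes, from the dimmest to the brightest. The mirrored rule, rising in both steps, was met by 175 probes. Without veraison extraction 2 the first distance was met by 1206 probes, the second by 2829 and both by 287. Of those meeting the first, 801 then stayed level and 118 were higher when ripe, and the mirrored rule was met by 208. The shares of members by veraison mean were then 6.57%, 31.8%, 45.0% and 58.2%, from the dimmest class to the brightest.

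The 750 probes that stayed level after veraison lacked the second step by definition, and their first step was of similar size. Their median first step was -3.36, against -3.41 for the members, and their median second step -0.10, against -2.03. The 750 were dimmer than the members, with medians of 10.63, 10.64 and 10.54 on the green arrays and 6.62, 6.63 and 6.62 at veraison. On the veraison arrays 293, 281 and 291 of them lay at or under the 25th percentile, against 2, 3 and 2 members. A further 179 probes (387 without veraison extraction 2) had stage means within 1 log2 of each other in green and veraison berries and a ripe value at least 2 below the lowest veraison value. Their median difference was -0.13 in the first step, and in the second step its quartiles were -3.70 and -2.45. All of these sets were made from the same values, and no difference between them was tested.

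**Figure D4:**
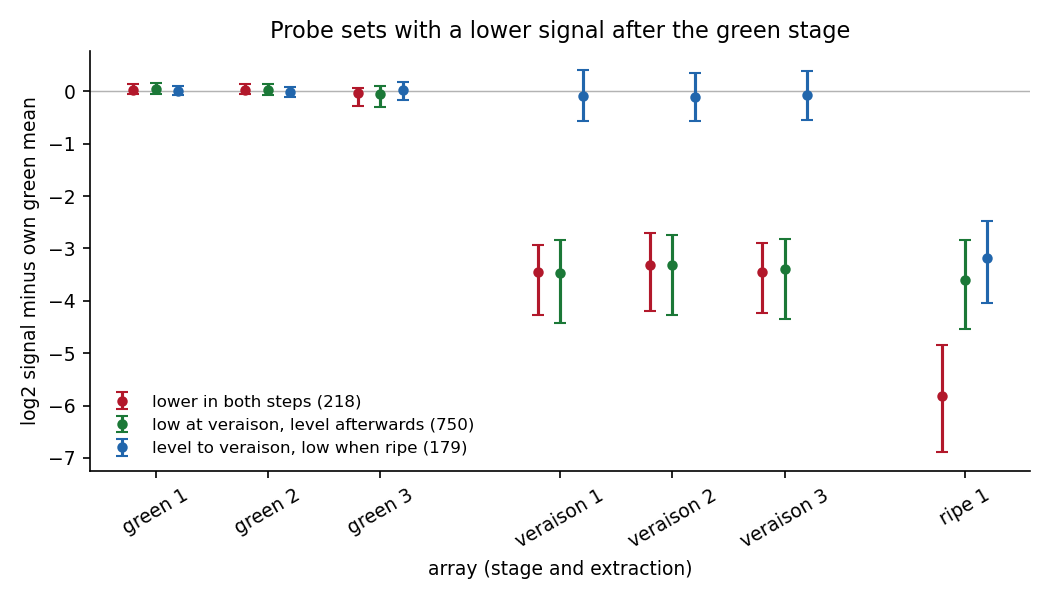
Log2 signal minus the probe's own green mean (vertical axis) on the 7 arrays (horizontal axis). Points are medians and bars quartiles over the 218 members (red), the 750 probes level after veraison (green) and the 179 probes level until veraison (blue). Red and green points lie together at veraison, and on the ripe array red reaches -5.82 and green -3.60.

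Within a stage the extractions varied little beside the steps. The rule favours this, because it sets gaps between the extreme values of the stages. The SD between extractions had a median over the 218 probes of 0.156 log2 in green berries and 0.192 at veraison (n = 3 each), against 0.138 and 0.188 over all probes. A range of more than 1 log2 between extractions occurred in 12 members in green berries and in 9 at veraison. In all 12 the low value was green extraction 3. That array was the lowest green array in 114 of the 218 members (52.3%), against 34.8% of all probes. The share was 52.7% among the 750 probes level after veraison and 42.5% among the 179 level until veraison, so it is not particular to the members. In 8 of the 9 the low value was veraison extraction 2, and in the remaining 1 extraction 2 was the highest.

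Veraison extraction 2 lay above the mean of extractions 1 and 3 in 160 of the 218 probes (73.4%), against 61.1% of all probes, with a median offset of 0.22 log2 against 0.11. It was thus on the green side in most members. The share above was 65.5% among the 750 probes level after veraison and 63.7% among the 179 level until veraison. Extraction 2 was at least 1 log2 below the mean of extractions 1 and 3 in 5 of the 218 members, against 1564 of all 28811 probes. At least 1 log2 above it were 0 members, against 241 of all probes. The 5 include VitusP00269591, with 9.69, 7.43 and 9.53 at veraison between 13.02, 13.03 and 13.03 in green berries and 5.56 when ripe. VitusP00035093 showed the same with 9.08, 7.86 and 9.07, and VitusP00035198 with 7.78, 6.66 and 7.87. The rule itself removes some probes that were low in extraction 2, since the ripe value must lie below the lowest extraction. Without extraction 2 the rule found 287 probes. Of the 69 added, 38 had missed the second distance because extraction 2 was the lowest, and 31 the first because it was the highest. For the 218 probes themselves the median steps without extraction 2 were -3.46 and -2.01.

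**Figure D5:**
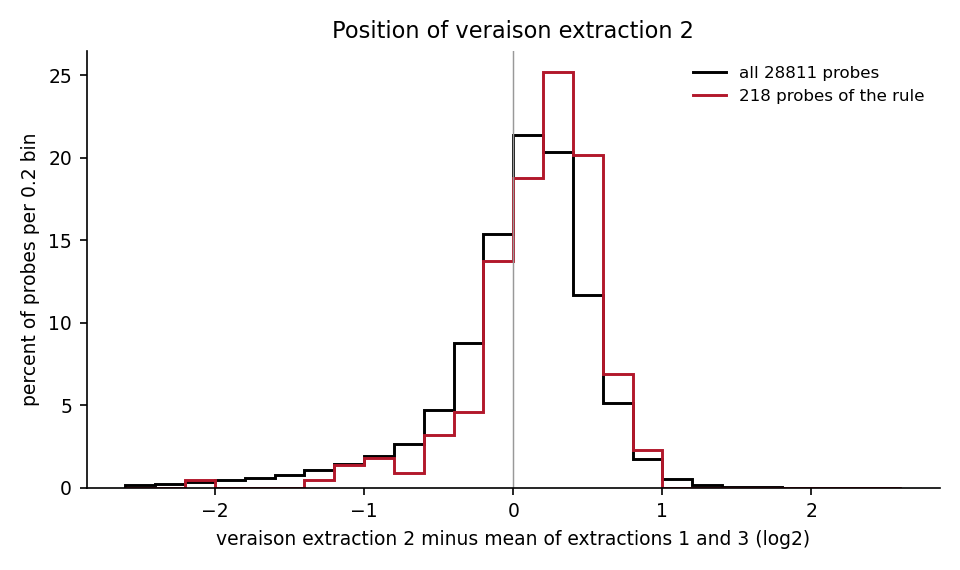
Veraison extraction 2 minus the mean of extractions 1 and 3 (horizontal axis, log2) as the percent of probes per bin of 0.2 (vertical axis). The red line is the 218 probes and the black line all 28811. The red line is shifted to the right, with a median of 0.22 against 0.11, and has less of the tail to the left.

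The linear model across all probes (limma, Benjamini-Hochberg adjusted p under 0.05) called 218 of the 218 probes lower at veraison than in green berries, against 21.7% of all probes. It called 211 lower in ripe berries than at veraison, against 10.0% of all probes, and without veraison extraction 2 again 211, against 19.6%. It called 218 lower in ripe than in green berries, against 22.4%. The rule used these same contrasts, so the counts carry no separate evidence. The ripe array was taken to vary like the others. Of the members, 7 were not called from veraison to ripe, with second steps of -1.50 to -1.24, limma SEs of 0.43 to 0.64 and adjusted p from 0.063 to 0.18. The median SE of a second step was 0.223 over all members. In all 7, green extraction 3 was the lowest green array, as it was in 52.3% of all members. Its offset from the mean of the others was -1.69 to -0.85 log2 in the 7. In 3 of the 7 the veraison extractions also ranged over more than 0.5 log2, and over the 7 this range went from 0.041 to 1.01. Such ranges also occurred among called members, for example 0.74 log2 in VitusP00119744, and their share over all members was not counted. VitusP00098558 and VitusP00059994 are examples chosen after their values were seen. VitusP00098558 had 10.83, 10.80 and 9.12 in green berries, 6.64, 6.77 and 6.59 at veraison and 5.36 when ripe. VitusP00059994 had 11.71, 11.58 and 10.23, then 6.31, 7.33 and 6.35, then 5.16. The spread of both stages enters the pooled error of the second step. Under a test against a 2-fold change, 108 of the 218 were called lower in the second step, against 2.18% of all probes.

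The thresholds cut through a continuous range. The 3 members just inside the first threshold had distances of 2.004, 2.015 and 2.020 log2, and the 3 probes just outside 1.986, 1.990 and 1.999. For the second threshold the 3 just inside had 1.003, 1.005 and 1.008, and the 3 just outside 0.983, 0.988 and 0.991. Within 0.25 log2 of the threshold lay 35 members for the first distance and 49 for the second. With 2 log2 required in both steps, 97 probes were left, and with 1 log2 in both there were 451.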

How the data were processed

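Berry RNA labelled with Cy3 was hybridised to 1-colour NimbleGen arrays, per the labels' protocols. The authors deposited log2 signals, 1 for each of 28811 probe identifiers and 7 arrays. RMA is named in the submitters' processing notes without its role, and the log base was read from the values, which reach just under 16. Array medians differed by less than 0.1, so the scaling was kept. No background or saturation flags were used, and precision is limited by the number of arrays.

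Members were found by the stated rule, and steps are differences of stage means. limma 3.58.1 in R 4.3.3 (lmFit, eBayes) was fitted to all probes and arrays with a term for stage, and p-values were adjusted over all probes (Benjamini-Hochberg). The fit was tested on simulated data. The group and the lists were chosen with earlier results of these data known. Named probes were the 4 with the largest first, second or whole difference, the 3 most even, the 3 with the highest and lowest green mean and the 3 widest at veraison, and any other is marked. Lists of gene names were prepared but not used, as no identifier matched.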

Additional observations from a re-analysis of the deposited data

How the results depend on the processing

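The 218 probes, their median steps of -3.41 and -2.03 and their limma calls were recomputed under other settings. After quantile normalization 220 probes met the rule, with 212 of the 218 kept, and after scaling to the 75th percentile 231, with 217 kept. With 50 added to the linear signal 152 probes met it, all among the 218, and their median first step was -3.23. Removing the 25% dimmest probes left the 218 as they were. With distances between stage means 391 probes met the rule (median steps -3.03 and -1.72), with both distances at 1 there were 451 (first step -2.37), and with both at 2 there were 97 (-3.30 and -2.96). These changes follow from the looser or stricter rule. Leaving out 1 array in turn gave 225 to 287 probes, with median first steps of -3.42 to -3.33 and second steps of -2.05 to -1.79. Fewer arrays loosen the rule by construction, so all 218 stay members. The largest number and the smallest second step came without veraison extraction 2, and the next largest number, 248, without green extraction 3. Calls from veraison to ripe were 211 in the 218 probes (10.0% of all probes called lower), and 108 against a 2-fold change (2.18%), 181 at an adjusted p under 0.01 (5.22%) and 213 with a trended and robust variance (10.9%).

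With the replicate number as a block, 195 of the 218 were called from veraison to ripe (5.52% of all probes called lower) and 218 each at veraison and in ripe berries against green (19.7% and 19.0%). Deviations of equally numbered extractions had correlations of -0.21, -0.12 and 0.05 across probes, so equal numbers were not taken as pairs. Without veraison extraction 2, an alternative added after seeing the data, 211 of the same 218 were called from veraison to ripe, where 19.6% of all probes were called lower.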
